A study of Drosophila melanogaster with 24 samples.

Results

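Antimicrobial peptide genes encode small secreted peptides that kill bacteria and fungi, and 10 of them were followed here in the Cap-G binding profiles of larval *Drosophila* brain cells: the attacins *AttA*, *AttB*, *AttC* and *AttD*, the cecropins *CecA1*, *CecA2*, *CecB* and *CecC*, the diptericin *DptB* and the drosomycin *Drs*. They were found by symbol in a Release 6 gene table and make up 10 of the 17684 genes on the 6 chromosome arms, or 10 of the 13922 protein-coding genes that a measured fragment touches. The signal was read over each gene and over the stretches between clustered members.

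In the fly, infection induces these genes mainly through the Imd and Toll pathways. Imd responds to peptidoglycan of the kind found in Gram-negative bacteria and acts through the NF-kappaB factor Relish, while Toll responds to fungi and Gram-positive bacteria and acts through Dif and Dorsal. The fat body is the main source of the peptides, which act in the haemolymph. Attacins, cecropins and diptericins are active chiefly against Gram-negative bacteria, and drosomycin is an antifungal peptide. Cap-G is a subunit found in condensin I, a complex known for folding chromosomes in mitosis.

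The assay was Targeted DamID (TaDa), in which a protein fused to the bacterial Dam methylase marks GATC sites near the DNA it contacts. A C-terminal fusion (*UAS-Cap-G-Dam*) was driven by *wor-GAL4* in neural stem cells (NSCs), by *elav-GAL4* in all neurons, immature ones included, or by *nSyb-GAL4* in mature neurons. The Dam-only line *UAS-LT3-NDam* was the control under each driver, and every animal carried *tub-GAL80ts* and was moved from 18 °C to 29 °C for 24 h before DNA extraction from L3 larvae (the last larval stage). There were 2 Cap-G-Dam and 2 Dam-only samples per driver, 12 in all, each a pool of 30 brains. The cell types were set by the drivers alone and could not be checked against marker genes, since the tracks hold binding and not expression. The *elav* cells include mature neurons, so the neuronal profiles are not of separate populations. A further 12 RNA samples of the series were not analysed here.

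The data were 3 tracks, 1 per driver, each giving log2 Cap-G-Dam/Dam for 373710 GATC fragments with a median length of 196 bp. Each track is an average made by the authors. No spread between replicates could therefore be computed, no test was possible, the depth is unknown, and every difference below is a description of 3 averages. A ratio below 0 can come from less Cap-G-Dam or from more Dam-only methylation, which cannot be told apart in a ratio. A gene's value was the mean over its annotated span, weighted by the length of each fragment inside it. It is given beside its percentile among the 13922 protein-coding genes of the same track. The tracks differed in spread, with an SD over fragments of 0.30 in NSCs, and 0.46 and 0.36 in *elav* and *nSyb* neurons. Tracks were therefore compared on a scaled value, the distance of the gene's value from the protein-coding median, divided by their median absolute deviation on the scale of an SD. A scaled unit was 0.165 on the log2 scale in NSCs, and 0.281 and 0.256 in *elav* and *nSyb* neurons.

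The members are short, from 387 to 963 bp, so each value rested on few fragments. They touched 37 fragments in all, 2 to 9 per gene, with a median length of 210 bp, and no fragment was shared by 2 members. Those above 0 numbered 25 in NSCs, and 27 and 28 in *elav* and *nSyb* neurons. There were 18 above 0 in all 3 tracks and 4 below 0 in all 3. The matching shares of all fragments were not computed, so these counts were not read as enrichment. Of all fragments, 53.2% lay below 0.001 in NSCs, 50.7% below 0.02 in *elav* neurons and 51.9% below 0.01 in *nSyb* neurons. The fragment values ran from -1.01 to 0.74 in NSCs, from -0.47 to 1.06 in *elav* neurons and from -0.67 to 0.70 in *nSyb* neurons.

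The median percentile of the antimicrobial peptide genes among all protein-coding genes was 54.9 in NSCs, 60.1 in *elav* neurons and, furthest from the middle, 70.5 in *nSyb* neurons. Their median log2 ratio was 0.015 in NSCs, and 0.12 and 0.14 in *elav* and *nSyb* neurons. All protein-coding genes had medians of -0.001, 0.05 and 0.00, given, as are all further sets of 3 values, in the order NSCs, *elav* neurons, *nSyb* neurons. In NSCs 5 of the 10 were above 0, against 48.4% of all protein-coding genes. In *elav* neurons 7 were above 0, against 57.7%, and in *nSyb* neurons 7 were above 0, against 49.5%. *AttA*, *AttC* and *DptB* were above 0 in all 3 tracks, as were 31.9% of protein-coding genes. *Drs* and *CecC* were below 0 in all 3, as were 26.8%. The sign of the other 5 differed between tracks, which was so for 40.3% of protein-coding genes. Single members stood much further out than the group did. In NSCs *CecA2* and *AttA* were near the 98th percentile and *CecC* at the 2nd, and in *elav* neurons *CecA1* and *AttD* were near the 98th. The high NSC values were not kept with 5 kb added on each side, where *AttA* had -0.050, *CecA2* -0.11 and *DptB* -0.013. Such windows are far longer than the genes, and those of *AttA* and *CecA2* also hold other members.

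**Figure D1:**
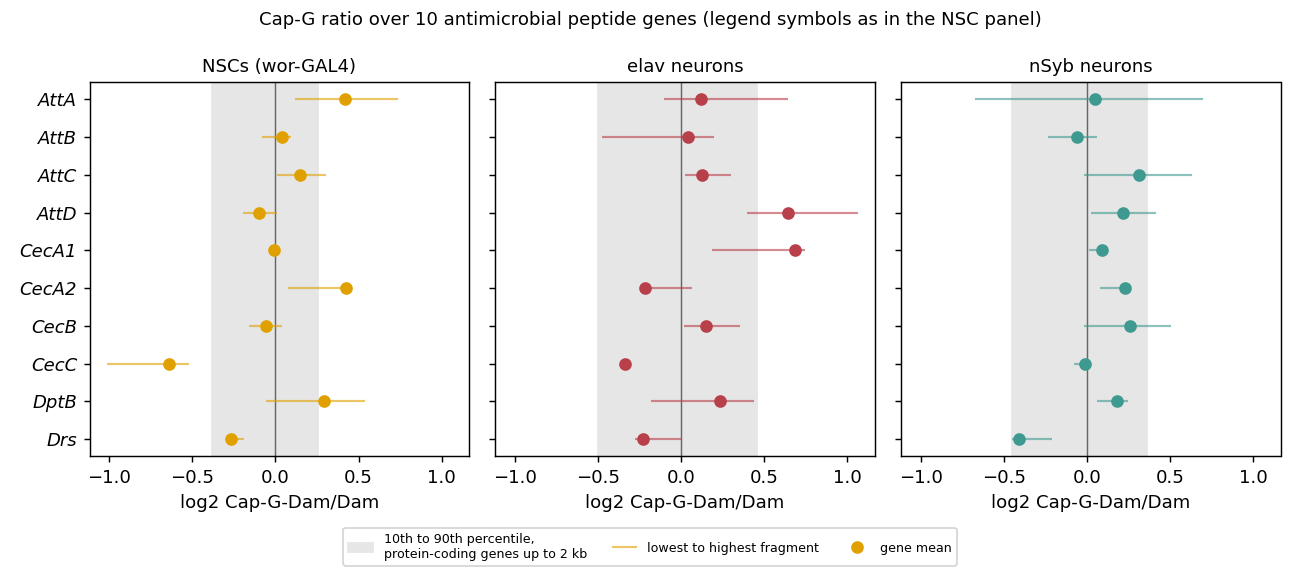
Log2 Cap-G-Dam/Dam ratio (x axis) of the 10 antimicrobial peptide genes (y axis) per cell type, 1 averaged track each. Points are gene means, lines run from the lowest to the highest fragment of the gene, and the grey band holds the 10th to 90th percentile of protein-coding genes of up to 2 kb. *AttA*, *CecA2* and *DptB* lie above the band and *CecC* below it in NSCs, *AttD* and *CecA1* lie above it in *elav* neurons, and all 10 lie within it in *nSyb* neurons.

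*AttA* and *AttB* are neighbouring copies with very similar sequences on chromosome arm 2R. Reads from the stretches that the copies share may have been placed on either gene, so the split between them is uncertain. On the log2 scale *AttA* (Dmel_CG10146, 2R, 14747362 to 14748215) had 0.42 in NSCs, and 0.12 and 0.05 in *elav* and *nSyb* neurons, at the 98.2nd, 59.7th and 58.6th percentiles. It was thus high in NSCs and close to the middle of all genes in both neuronal tracks. Its largest fragment inside the gene, 14747542 to 14748022, had 0.57, 0.16 and 0.27 in the same order. The fragment at the lower end of the gene, 14747270 to 14747541, separated the tracks most, with 0.30 in NSCs, and -0.10 and -0.67 in *elav* and *nSyb* neurons. That last value was at the 4.70th percentile of all fragments of its track, within a gene whose other 3 fragments were above 0 there.

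*AttB* (Dmel_CG18372, 2R, 14749223 to 14750165) averaged near 0 in every track, with 0.04 in NSCs, and 0.04 and -0.06 in *elav* and *nSyb* neurons. These means joined fragments of opposite sign. In *elav* neurons the fragments had 0.198, -0.473 and -0.077, and in *nSyb* neurons 0.063, -0.225 and -0.231. The 1007 bp between the copies had 0.06, 0.22 and 0.13. *AttB* was 0.38 lower than *AttA* in NSCs. Among the 2266 pairs of neighbouring protein-coding genes of up to 2 kb that lie within 2 kb of each other, 84.7% differed by less than that in NSCs, and the median difference was 0.14. The copies differed by 0.08 in *elav* neurons and by 0.11 in *nSyb* neurons, which is less than the medians of 0.21 and 0.17 over the same pairs.

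*Dro*, which encodes the antibacterial peptide drosocin, lies on the lower side of *AttA* and had 0.00 in NSCs, and 0.04 and -0.30 in *elav* and *nSyb* neurons. In *nSyb* neurons all 14 fragments in the 5 kb on this side were below 0, with a mean of -0.22, against 0.03 in NSCs and 0.11 in *elav* neurons. On the other side of the pair lies *Rpn6*, a proteasome lid subunit gene, which had -0.40, -0.18 and -0.37. The positive NSC signal at *AttA* therefore did not extend as a broad block: the 5 kb toward *Rpn6* averaged -0.15 in NSCs.

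*AttC* (Dmel_CG4740, 2R, 13393705 to 13394667) lies alone on 2R, with 53 bp of its span inside *CG4744*. It had 0.15 in NSCs, and 0.13 and 0.31 in *elav* and *nSyb* neurons, at the 82.4th, 60.5th and 88.7th percentiles, and no member was higher in *nSyb* neurons. Its 9 fragments were all above 0 in NSCs and in *elav* neurons, and 7 were in *nSyb* neurons. The signal peaked inside the gene in NSCs and *nSyb* neurons, in the fragment from 13394109 to 13394436, which had 0.30 and 0.64 there and 0.16 in *elav* neurons.

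The neighbours of *AttC* had higher values than *AttC* itself in NSCs and *nSyb* neurons, and *CG4744* did in *elav* neurons too. *CG4744* had 0.43, 0.27 and 0.48, and *CG43691*, on the other side, had 0.27, -0.02 and 0.32. The 5 kb on the *CG4744* side was above 0 in all 35 fragments in NSCs and in *nSyb* neurons, and in 31 of 35 in *elav* neurons. *AttC* thus lay beside a long positive stretch, with means of 0.41, 0.27 and 0.46.

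*AttD* (Dmel_CG7629, 3R, 17625268 to 17626086) has no signal peptide, unlike the other attacins. It had -0.10 in NSCs, and 0.64 and 0.22 in *elav* and *nSyb* neurons, at the 28.5th, 97.5th and 80.6th percentiles. All 4 of its fragments were above 0 in both neuronal tracks, and 3 of 4 were below 0 in NSCs. Its fragment from 17625397 to 17625696 had -0.19, 1.02 and 0.42, and the value in *elav* neurons was at the 98.4th percentile of all fragments. The range of the gene's value over the 3 tracks, 0.74, was the widest of the members. The gene lies among tRNA genes, and its surroundings were uneven: the 5 kb on its lower side had -0.19, 0.10 and -0.26, and the 5 kb on its higher side had 0.15, 0.18 and -0.15. In *nSyb* neurons *AttD* was thus above 0 while the 5 kb on either side averaged below 0.

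The cecropin cluster, 6065 bp on 3R with *CecA1*, *CecA2*, *CecB* and *CecC* in this order, held neighbouring members with unlike values. *CecA1* and *CecA2* encode the same mature peptide and are near-identical in their coding parts, so reads may have been placed on either copy there too. *CecA1* (Dmel_CG1365, 30210874 to 30211273) had -0.01 in NSCs, and 0.69 and 0.09 in *elav* and *nSyb* neurons, at the 47.9th, 98.1st and 64.6th percentiles. *CecA2* (Dmel_CG1367, 30212156 to 30212568) had 0.42, -0.22 and 0.23, at the 98.4th, 18.6th and 81.4th percentiles. The genes thus stood in opposite order in NSCs and *elav* neurons, with *CecA2* 0.43 above *CecA1* in NSCs and 0.91 below it in *elav* neurons. The opposite order did not hold with margins added. The genes lie 882 bp apart, so each widened window took in part or all of the other gene. With 5 kb only the *CecA2* window also held *CecC*. The widened values therefore cannot show how far the order extended. With 1 kb added on each side, *CecA2* had 0.063 and *CecA1* 0.070 in NSCs, and 0.11 and 0.23 in *elav* neurons. With 5 kb, *CecA2* was again the lower in both tracks, with -0.11 against -0.043 and 0.071 against 0.14.

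Of the 2266 neighbouring pairs, 88.3% differed by less than *CecA1* and *CecA2* did in NSCs and 96.0% by less in *elav* neurons. In *nSyb* neurons the difference was 0.13, with 42.5% of pairs below it. Each of these gene values rested mainly on 1 fragment. For *CecA1*, 90% of the span was in the fragment from 30210758 to 30211233, with -0.01, 0.74 and 0.10. For *CecA2*, 90.8% was in the fragment from 30212165 to 30212539, with 0.46, -0.24 and 0.24. The 882 bp between the genes hold the pseudogene *Cec-Psi1*, at 0.00, 0.19 and 0.01 in the same order of tracks. That stretch as a whole had 0.03, 0.13 and 0.02.

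*CecB* (Dmel_CG1878, 30213315 to 30213797) had -0.05 in NSCs, and 0.15 and 0.26 in *elav* and *nSyb* neurons, at the 36.4th, 63.2nd and 84.4th percentiles. Its order of values was therefore NSCs, *elav* neurons, *nSyb* neurons, which also held for *CecC* and for no other member. The highest *nSyb* value of the whole cluster, 0.51, was in the fragment that covers the lower end of *CecB*, 30213143 to 30213458, where NSCs had -0.16 and *elav* neurons 0.24. Between *CecA2* and *CecB* the 746 bp with the pseudogene *Cec2* had -0.03, 0.17 and 0.16.

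The 2686 bp between *CecB* and *CecC* carry no annotated gene and held the highest signal of the cluster in *elav* neurons. Over the stretch the means were -0.11 in NSCs, and 0.24 and 0.09 in *elav* and *nSyb* neurons. The fragment from 30214743 to 30215053 was positive in every track, with 0.30, 0.68 and 0.48. In the fragment from 30215140 to 30215397 *elav* neurons reached 0.84 while NSCs had 0.10 and *nSyb* neurons 0.15. Further on, the fragment from 30215577 to 30216381 was below 0 in every track, with -0.43, -0.26 and -0.11.

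*CecC* (Dmel_CG1373, 30216484 to 30216938) lies past this change of sign. It had -0.64 in NSCs, and -0.34 and -0.01 in *elav* and *nSyb* neurons, at the 2.01st, 11.8th and 48.0th percentiles. The value in NSCs was the lowest of any member in any track. Its fragment from 30216382 to 30216591 had -1.01 in NSCs, at the 1.34th percentile of all fragments, and -0.31 and -0.08 in *elav* and *nSyb* neurons. The 10 kb beyond *CecC* stayed below 0 in all 16 fragments in NSCs and in *elav* neurons, with means of -0.24 and -0.68, and had -0.18 in *nSyb* neurons. On the other side of the cluster *Anp*, which encodes a male-specific antibacterial peptide, had 0.18, -0.01 and 0.17.

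**Figure D2:**
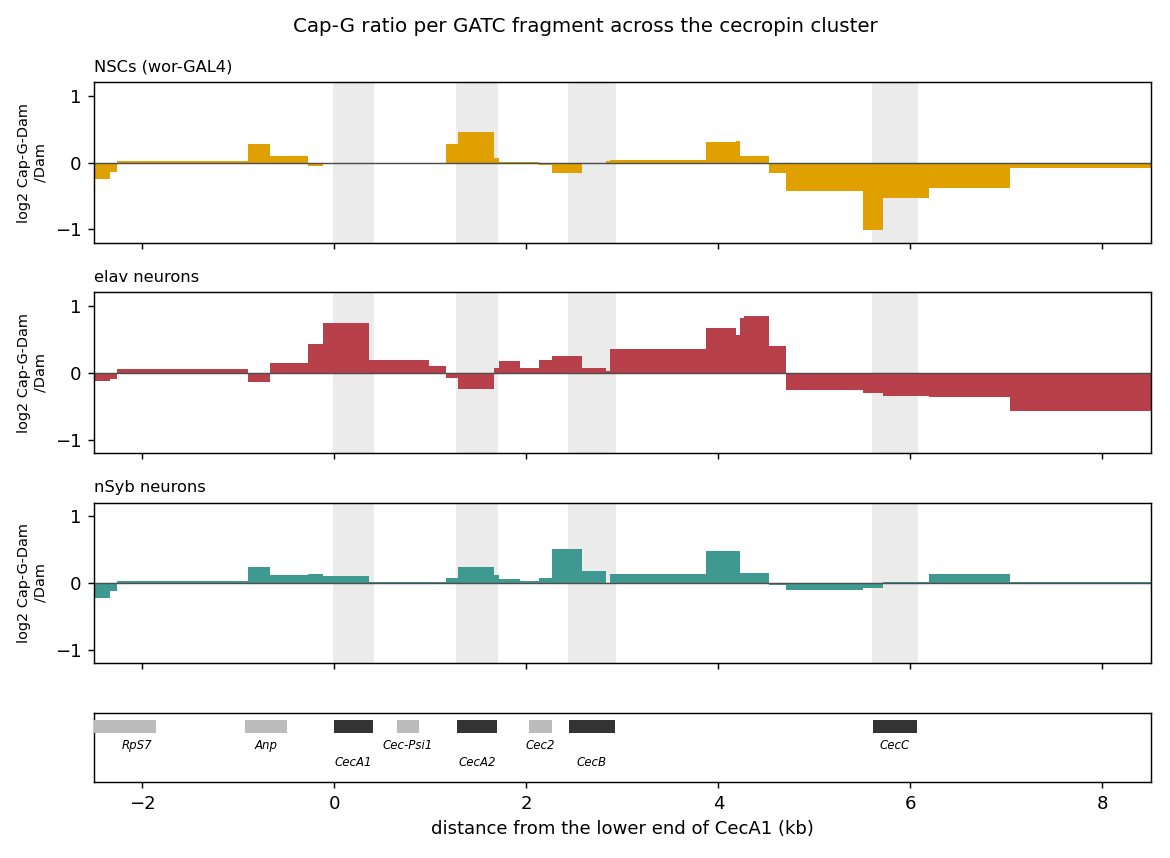
Log2 Cap-G-Dam/Dam ratio of each GATC fragment (y axis) against the distance in kb from the lower end of *CecA1* (x axis) in NSCs, *elav* neurons and *nSyb* neurons. Dark boxes are the 4 members, light boxes other genes and pseudogenes, and grey bands mark the members' spans. In *elav* neurons the signal is high over *CecA1* (0.69) and between *CecB* and *CecC* (up to 0.84) and below 0 over *CecA2* and *CecC*, while in NSCs it is above 0 over *CecA2* (0.42) and falls to -1.01 at *CecC*.

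*DptB* (Dmel_CG10794, 2R, 18867391 to 18867895), a diptericin gene, was positive in every track. It had 0.29 in NSCs, and 0.23 and 0.18 in *elav* and *nSyb* neurons, at the 94.3rd, 73.7th and 76.4th percentiles. Within the gene the fragment from 18867498 to 18867685 was the highest in each track, with 0.54, 0.44 and 0.25. The last of its 4 fragments, 18867756 to 18867949, had -0.06, -0.18 and 0.06. In NSCs the positive signal was narrow, since the 1 kb on the lower side averaged -0.19 and that on the higher side -0.02. In *elav* neurons it was not confined to the gene, with 0.29 and 0.16 on these sides. In *nSyb* neurons the sides had 0.07 and -0.01. *DptA*, the related gene on the lower side, lies within a single fragment and had -0.11, 0.08 and 0.15.

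*Drs* (Dmel_CG10810, 3L, 3369556 to 3369942), the main antifungal peptide gene of the Toll response, had -0.27 in NSCs, and -0.23 and -0.41 in *elav* and *nSyb* neurons. These values were at the 11.9th, 17.9th and 8.51st percentiles, and neither of its fragments was above 0 in any track. It was the lowest member in *nSyb* neurons. *Drs* sat at the edge of a negative stretch rather than alone in one. On its higher side the 1 kb averaged -0.36, -0.44 and -0.59, and *Ythdc1*, a reader of N6-methyladenosine in RNA, had -0.30, -0.27 and -0.39. On its lower side the 10 kb in and next to *kst*, a beta-heavy spectrin gene, averaged 0.15, 0.28 and 0.14.

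**Figure D3:**
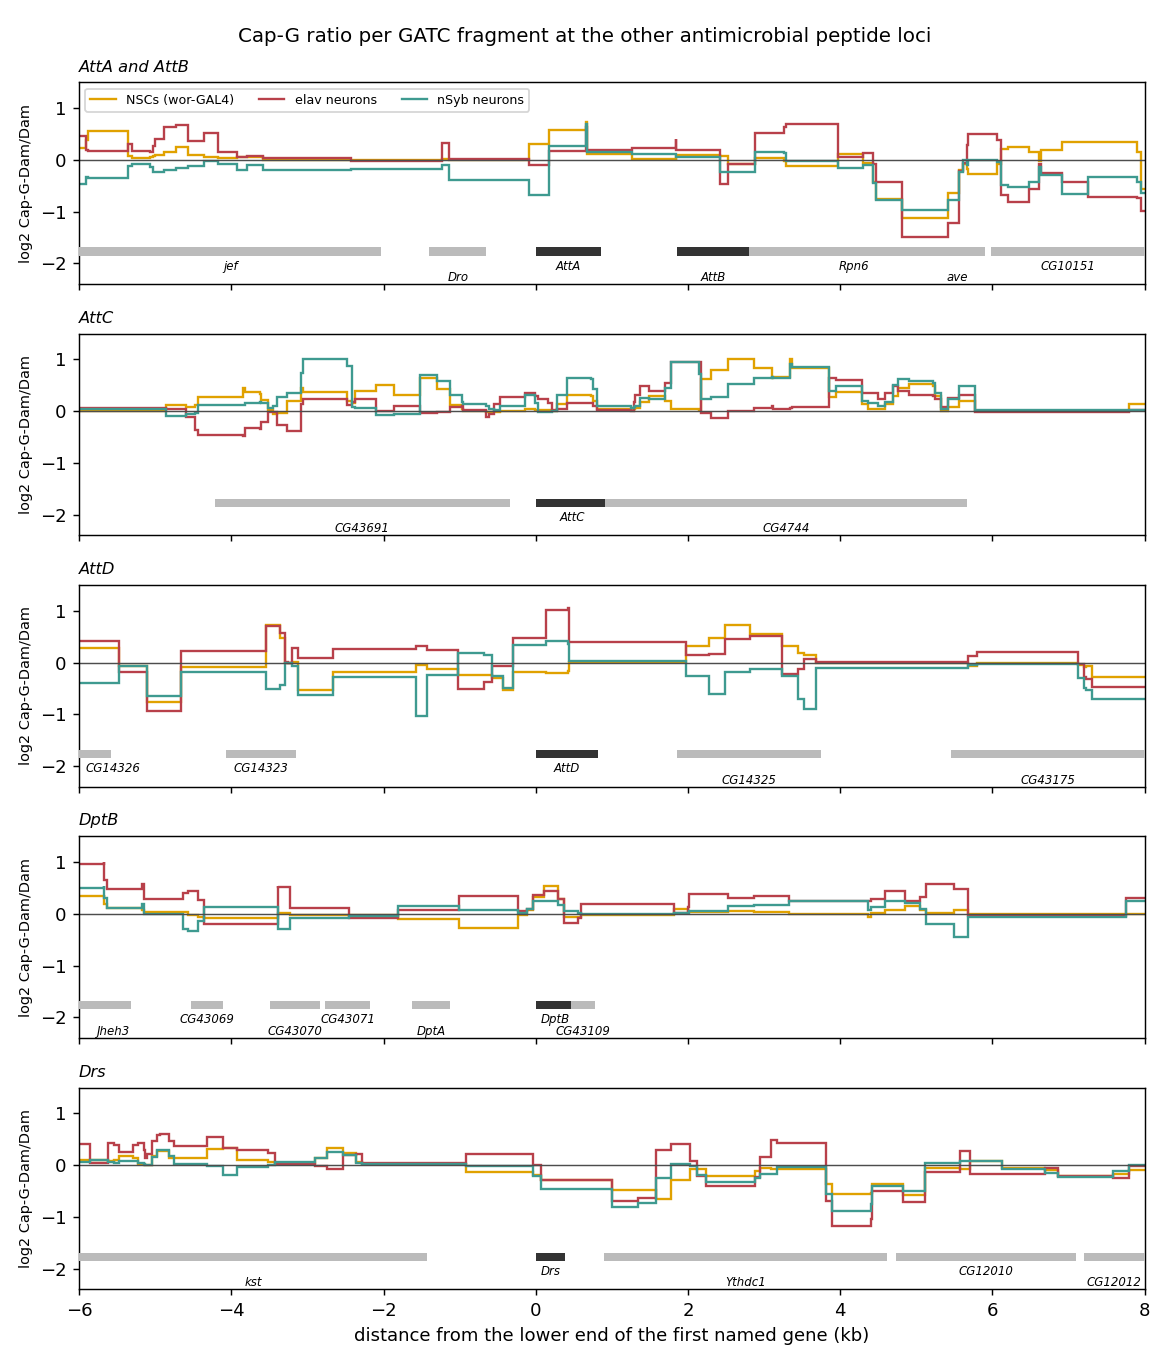
Log2 Cap-G-Dam/Dam ratio of each GATC fragment (y axis) against the distance in kb from the lower end of the first named gene (x axis). The loci are those of *AttA* and *AttB*, *AttC*, *AttD*, *DptB* and *Drs*, with 1 line per track. Members are dark boxes and neighbouring protein-coding genes light boxes, and tRNA genes are not drawn. *AttD* has its highest values in *elav* neurons (1.02 in its fragment from 17625397 and 1.06 in the next). *AttC* lies beside a positive stretch over *CG4744* (means of 0.41, 0.27 and 0.46 over 5 kb). *Drs* lies at the start of a stretch with negative values in all 3 tracks (-0.36, -0.44 and -0.59 over 1 kb).

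The profiles were compared between cell types to ask how Cap-G signal at these genes differs between progenitors and neurons. Each track enters 2 of the 3 comparisons, so the comparisons are not independent. From NSCs to *elav* neurons, 3 members were more than 1 scaled unit higher, *AttD* (2.70), *CecC* (2.48) and *CecA1* (2.30). Among all protein-coding genes 16.3% were that much higher. The same number were more than 1 unit lower, *CecA2* (-3.53), *AttA* (-2.29) and *DptB* (-1.12), against 12.1% of all. The median scaled difference of the members was 0.17 and that of all genes 0.05. *CecA2* fell further than almost every gene, at the 0.287th percentile of all differences, and *AttD* was at the 98.5th. On the log2 scale *CecA2* was 0.64 lower in *elav* neurons than in NSCs and *AttD* 0.74 higher. The members thus did not move in 1 direction, with 5 of 10 higher in *elav* neurons, where 52.5% of all genes were. The 3 that were more than 1 unit lower had the highest NSC values, and *CecC* had the lowest. Since the difference subtracts the NSC value, an extreme NSC value itself favours such a pattern. Scaled values of the members ran from -3.86 to 2.57 in NSCs and from -1.38 to 2.27 in *elav* neurons. With 1 kb added on each side no member was more than 1 unit lower in *elav* neurons, and with 5 kb none was more than 1 unit higher.

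From *elav* to *nSyb* neurons, *CecA2* (1.85) and *CecC* (1.35) were more than 1 unit higher, 2 of 10 members against 12.5% of all genes. *CecA1* (-1.90) and *AttD* (-1.25) were more than 1 unit lower, again 2 of 10 against 12.5%. The members with the highest values in *elav* neurons were the ones that were lower in mature neurons, and *CecA2*, low in *elav* neurons, was higher. The difference subtracts the *elav* value, so an extreme *elav* value itself favours this pattern. No change with maturation was read from it. The *elav* track also enters the comparison with NSCs. The median scaled difference of the members was 0.01, against -0.04 for all genes. Its sign depended on the setting, with -0.38 when 1 kb was added on each side, -0.22 with 5 kb and 0.29 with unweighted medians of fragments. With 1 kb no member was more than 1 unit lower in *nSyb* neurons, and with 5 kb, unweighted medians or percentiles 1 was.

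From NSCs to *nSyb* neurons, *CecC* (3.83), *AttD* (1.45) and *CecB* (1.33) were more than 1 unit higher, 3 of 10 against 14.1% of all genes. *AttA* (-2.34), *CecA2* (-1.69) and *DptB* (-1.04) were more than 1 unit lower, 3 of 10 against 11.1%. That count fell to 1 with 1 kb or 5 kb added on each side and with differences of percentiles. The difference of *CecC*, from -0.64 to -0.01 on the log2 scale, was at the 99.4th percentile of all differences. *Drs* differed by 0.02 scaled units and *AttC* by 0.31. Of the 10 members 4, *AttD*, *CecA1*, *CecA2* and *CecC*, had a range over the tracks above 0.5, against 17.6% of protein-coding genes of up to 2 kb.

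Bound regions were called on each averaged track as runs of 2 or more fragments above a quantile, at a false discovery rate (FDR) of 0.01%, computed from the runs expected with the fragments shuffled. The term bound was used for a gene that a region overlapped, or for the nearest gene on either side within 5 kb. That nearest gene did not count where another gene overlapping the region extended beyond the region on that side. No member was bound in any track, against 7.84% of protein-coding genes in NSCs, and 10.5% and 9.38% in *elav* and *nSyb* neurons. Of the protein-coding genes of up to 2 kb, 3.97%, 5.40% and 6.12% were bound in the same order of tracks.

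At the looser FDR of 1% the members bound were *CecB* and *CecC* in *elav* neurons and none in the other tracks. Of all protein-coding genes 24.0% were bound at this FDR in NSCs, and 25.3% and 26.0% in *elav* and *nSyb* neurons. The region behind both calls was 1 run of 8 fragments, 3R 30213746 to 30215576, with a mean of 0.50. It overlaps the end of *CecB* and covers much of the stretch between the genes, but ends 908 bp before *CecC*, whose own value in *elav* neurons was -0.34. The call at *CecC* is thus one of position and not of signal over the gene.

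*AttC* was flanked by regions called at an FDR of 0.01% without being called itself. In NSCs a run of 10 fragments, 2R 13390441 to 13392583 with a mean of 0.39, lay 1122 bp away in *CG43691*. A run of 12 fragments, 13395872 to 13398070 with a mean of 0.70, lay 1205 bp away on the other side in *CG4744*. In *nSyb* neurons a run of 18 fragments, 13395070 to 13398070 with a mean of 0.57, began 403 bp from the gene. These regions lie in neighbouring genes. Where a gene in between was allowed, *AttC* counted as bound in NSCs and in *nSyb* neurons, while *AttC* and the other 9 members were not in *elav* neurons. Under that rule 17.4%, 20.5% and 19.1% of protein-coding genes were bound in the 3 tracks.

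The other members lay further from any region at an FDR of 0.01%. The nearest was 7239 bp from *Drs*, a region in *kst* from 3L 3360827 to 3362317 called in NSCs and *nSyb* neurons. It was followed by a region 9325 bp from *CecA1* in *elav* neurons and one 10052 bp from *AttD* in *nSyb* neurons. From *AttA* the nearest region was 97469 bp away in NSCs and 375041 bp away in *nSyb* neurons. *AttD* was 278948 bp from the nearest region in NSCs. Its nearest NSC region at an FDR of 1% was 1161 bp away, 3R 17627247 to 17628944, inside *CG14325*, where the mean was 0.45.

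Further genes of the immune response were read from 5 lists of 80 genes, all of which were matched. Their counts above 0 stand beside 48.4%, 57.7% and 49.5% of all protein-coding genes, and their counts bound at an FDR of 0.01% beside 7.84%, 10.5% and 9.38%. Among 27 other secreted immune peptides the medians were 0.04 in NSCs, and 0.05 and 0.11 in *elav* and *nSyb* neurons, and 18, 19 and 22 genes were above 0. At an FDR of 0.01% 2, 2 and 0 of them were bound. The lowest of this list in *nSyb* neurons were *Mtk*, read from 1 fragment, and *Dro*, with -0.41 and -0.30. The *nSyb* median of the 10 members therefore does not stand for every immune peptide gene. *BomS1*, a Bomanin short peptide of the Toll response, was the highest in NSCs and *elav* neurons, with 1.17 and 1.50, and had 0.66 in *nSyb* neurons. *Drsl3*, a drosomycin-like gene read from 2 fragments, was the highest in *nSyb* neurons, with 0.95. *Drsl1*, read from 1 fragment, had 1.20 in *elav* neurons. Gene values of 0.95 or more were not seen at *Drs* or at any other of the 10 members. Single fragments of *AttD* did reach 1.06 in *elav* neurons. *BomT1*, in the same cluster as *BomS1* and read from 2 fragments, was the lowest in NSCs, with -0.51. These are the extremes of the list, and the other Bomanin genes of that cluster ran from -0.36 (*BomBc2*) to 0.01 in NSCs.

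The 7 *Turandot* genes, which encode humoral factors of the stress response, had medians of 0.11, 0.30 and 0.09, with 5, 6 and 5 above 0 and none bound. *TotX* reached 0.89 in *elav* neurons and *TotM* 0.58 in *nSyb* neurons. The 16 genes for peptidoglycan and glucan recognition had medians of 0.01, 0.24 and 0.09, with 9, 14 and 12 above 0 and 1, 2 and 1 bound. *PGRP-LF*, which encodes a negative regulator of the Imd pathway, was the highest in *elav* neurons, with 0.80. *GNBP1*, which acts upstream of Toll in the sensing of Gram-positive bacteria, was the highest in NSCs and *nSyb* neurons, with 0.47 and 0.39. *PGRP-LE*, an intracellular receptor, was the lowest in NSCs and *elav* neurons, with -0.42 and -0.27.

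The 15 Imd pathway genes had medians of -0.13, 0.08 and -0.02, with 2, 9 and 6 above 0 and 1, 1 and 0 bound. The adaptor gene *imd* had -0.28, -0.34 and -0.44, and *Diap2*, a ubiquitin ligase of the pathway, had -0.33, -0.54 and -0.10. *pirk*, a negative regulator, had 0.07, 0.32 and 0.27. The 15 Toll pathway genes had medians of 0.05, 0.23 and 0.15, with 10, 13 and 10 above 0 and 4, 5 and 1 bound. *spz*, the Toll ligand gene, reached 0.71 in *elav* neurons, where the receptor gene *Tl* had -0.29. The 10 antimicrobial peptide genes thus lay between the signalling lists in NSCs and, with a median of 0.12, below the recognition, *Turandot* and Toll lists in *elav* neurons. In *nSyb* neurons their median of 0.14 was above those of the other secreted peptides (0.11), the *Turandot* genes (0.09), the recognition genes (0.09) and the Imd genes (-0.02) and just under that of the Toll genes (0.15). The lists differ in gene length, and no test of these differences was made.

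**Figure D4:**
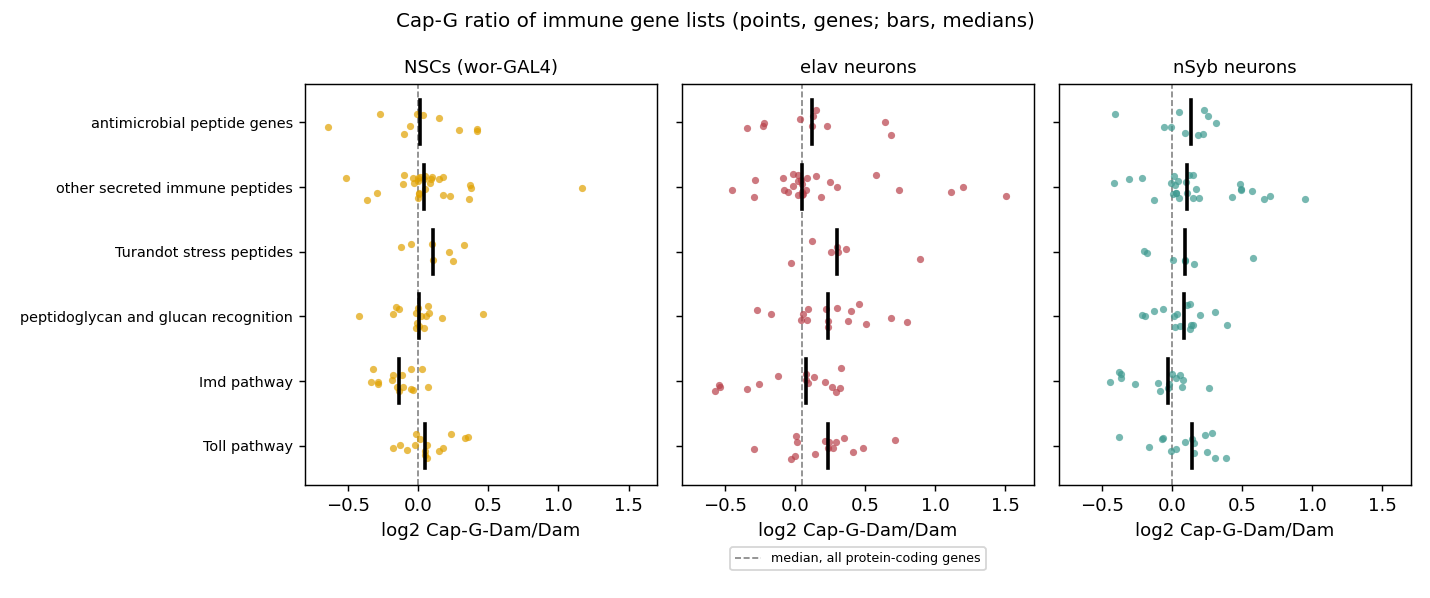
Log2 Cap-G-Dam/Dam ratio (x axis) of the 10 antimicrobial peptide genes and the 5 other immune gene lists (y axis) in NSCs, *elav* neurons and *nSyb* neurons, with 1 point per gene, black bars at the medians and a dashed line at the median of all protein-coding genes. The antimicrobial peptide genes have medians of 0.015, 0.12 and 0.14, and the highest points in NSCs and *elav* neurons are *BomS1*, at 1.17 and 1.50.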

How the data were processed

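Genomic DNA from 12 TaDa samples was DpnI digested, amplified and sequenced as 50 bp single-end reads. Per the labels and the study's methods, reads were mapped with Bowtie2 to BDGP6 (release 6.03) and Cap-G-Dam was normalised to Dam-only. Neither tool versions nor the method of averaging are stated in the labels or methods. What was deposited are the authors' averaged log2 ratios per GATC fragment, which set no depth and no replicate spread.

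From these tracks, gene means, percentiles, scaled differences and bound regions were computed in Python 3.11.15 with numpy 2.4.6 and pandas 2.3.3. Figures were drawn with matplotlib 3.10.9. Gene spans came from a RefSeq table of Release 6, without strand or exons. The region caller was tested on shuffled fragments with planted runs. Its FDR also rests on shuffled fragments, so this test could not check the FDR where neighbouring fragments resemble each other. The members and lists were chosen with earlier results of these data known. The text names all members, the genes between clustered members, their neighbours and, for each other list, genes among the 2 highest or 2 lowest of a track. Neighbours outside the clusters, the list values shown beside an extreme one, and *Tl* beside *spz* were named after their values were seen.

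The alternatives were an unweighted median of fragments, spans extended by 1 kb or 5 kb, only fragments of 200 to 2000 bp, fragments at 0 left out, differences of percentiles, loci counted once, and other FDR and run-length settings. A further one, chosen after seeing the data, called any gene within 5 kb of a region bound. RNA samples and sequences were not used here.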

Additional observations from a re-analysis of the deposited data

How the results depend on the processing

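No paired analysis was possible because each deposited track is an average over the replicates of a driver, and for the same reason no replicate could be left out. With a 1 kb margin the signs of 7 of the 30 gene values changed, with 5 kb 9 of 30, with unweighted medians 1, and none of 27 with fragments of 200 to 2000 bp, where *DptB* had no fragment. With 5 kb added, *AttA* (-0.050), *CecA2* (-0.11) and *DptB* (-0.013) fell below 0 in NSCs, as *DptB* did with 1 kb (-0.026), and 1 member was above 0 in NSCs. The cause was not tested, but these margins bring neighbouring genes into the value. The member medians were then -0.046, 0.057 and 0.053 in the 3 tracks, and 0.22 in *elav* and 0.077 in *nSyb* neurons with 1 kb.

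The median scaled difference from NSCs to *elav* neurons was 0.50 with 1 kb or 5 kb and 0.51 with fragments of 200 to 2000 bp. From *elav* to *nSyb* neurons it was -0.38 with 1 kb, -0.22 with 5 kb, -0.081 with fragments of 200 to 2000 bp and 0.29 with unweighted medians. From NSCs to *nSyb* neurons it was 0.33, 0.22, 0.34 and 0.45 in the same order. Members more than 1 unit lower in *elav* neurons than in NSCs were 0 with 1 kb and 1 with 5 kb, and 0 were higher with 5 kb. From *elav* to *nSyb* neurons 1 was higher with 1 kb, and the number lower was 0 with 1 kb and 1 with 5 kb, unweighted medians or percentiles. From NSCs to *nSyb* neurons 1 was lower with 1 kb, 5 kb or percentiles. Members bound were 2 in *elav* neurons at an FDR of 1%, and 1 in NSCs and 1 in *nSyb* neurons where any gene within 5 kb of a region counted. Depth is unknown, so no limit of detection could be set.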
